A study of Mus musculus with 20 samples.

Results

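Glucose handling by the kidney was examined through 10 genes in whole-kidney RNA of mice given puberulic acid or phosphate-buffered saline (PBS). The genes were chosen by name: Slc5a1, Slc5a2, Slc2a1 and Slc2a2, which carry glucose across the tubule wall, and Slc37a4, G6pc, Fbp1, Pck1, Pck2 and Pcx, which make new glucose. All 10 were found among the 55822 genes of the counts table. The study dosed male C57BL/6J mice, 8 weeks old, once daily for 6 days and took the kidneys on day 7. Its 20 samples form 4 groups of 5: PBS as the control, 1 mg of puberulic acid daily, and 1000 mg daily of the supplement Choleste-Help from either its normal or its toxic lot. Puberulic acid belongs to the tropolones and is made by some Penicillium moulds. The labels name no engineered allele in any group, and they leave it unclear which mice were dosed by mouth and which into the peritoneum. They also do not say that each sample is a separate mouse, so p-values measure the spread between these samples. The 10 columns of the supplement groups carry names that do not say which lot they hold, and they are not analysed here.

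Glucose is filtered freely in the glomerulus and is taken back by the proximal tubule. In the early segments the sodium-glucose cotransporter SGLT2 (Slc5a2) brings it in through the brush border and GLUT2 (Slc2a2) releases it on the blood side, and further along SGLT1 (Slc5a1) and GLUT1 (Slc2a1) do the same work with higher affinity. The same cells make glucose from lactate, glutamine and glycerol: pyruvate carboxylase (Pcx) forms oxaloacetate, phosphoenolpyruvate carboxykinase turns it into phosphoenolpyruvate in the cytosol (Pck1) or the mitochondrion (Pck2), fructose-1,6-bisphosphatase (Fbp1) carries out the next irreversible step, and glucose-6-phosphatase (G6pc), fed by the transporter Slc37a4 in the endoplasmic reticulum, frees the glucose. The kidney and the liver are the organs that release glucose into the blood in this way.

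The 2 genes with the largest decreases, G6pc and Pck1, are shown here by the 250 bases before their start sites, beside those of Slc5a1 and Slc2a1, which did not fall. The sequences are RefSeq's for the build GRCm38.p6, read 5′ to 3′ on the gene's strand, and that build is not the one named in the submitters' processing notes. Capitals mark exact matches, on either strand, to the letters AGGTCA (bound by nuclear receptors such as HNF4), ACGTCA (the core of the cAMP response element) and TATAAA (the TATA box), and no marked match overlaps another.
G6pc, chr11:101367466-101367715, plus strand: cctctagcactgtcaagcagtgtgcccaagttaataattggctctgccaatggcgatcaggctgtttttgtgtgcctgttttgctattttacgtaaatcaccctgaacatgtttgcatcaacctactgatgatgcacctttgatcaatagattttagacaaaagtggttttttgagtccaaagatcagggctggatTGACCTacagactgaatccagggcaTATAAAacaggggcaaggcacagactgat
Pck1, chr2:173152823-173153072, plus strand: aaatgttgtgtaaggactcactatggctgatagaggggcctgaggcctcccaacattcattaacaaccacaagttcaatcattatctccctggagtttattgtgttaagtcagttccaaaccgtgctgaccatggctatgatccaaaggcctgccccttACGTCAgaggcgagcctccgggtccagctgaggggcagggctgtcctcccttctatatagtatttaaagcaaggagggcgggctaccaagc
Slc5a1, chr5:33103969-33104218, plus strand: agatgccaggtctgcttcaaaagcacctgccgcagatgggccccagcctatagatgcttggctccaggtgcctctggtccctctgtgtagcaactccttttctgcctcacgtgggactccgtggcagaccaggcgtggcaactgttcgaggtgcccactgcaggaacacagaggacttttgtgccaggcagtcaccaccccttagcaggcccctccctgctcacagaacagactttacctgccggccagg
Slc2a1, chr4:119108495-119108744, plus strand: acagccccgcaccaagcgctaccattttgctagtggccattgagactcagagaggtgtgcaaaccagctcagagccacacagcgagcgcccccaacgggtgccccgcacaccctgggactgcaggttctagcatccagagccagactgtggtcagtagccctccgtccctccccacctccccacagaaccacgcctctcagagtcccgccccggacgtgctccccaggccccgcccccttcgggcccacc

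The G6pc window holds AGGTCA on the minus strand at 49 to 54 bases before the start and TATAAA at 24 to 29. The Pck1 window holds ACGTCA at 86 to 91 bases before the start. The windows of Slc5a1 and Slc2a1 hold none of these matches, nor do those of Fbp1, Pck2 and Pcx, while the Slc2a2 window has the nuclear receptor letters and the 3 Slc37a4 windows have those, the cAMP letters or the TATA box. The table held 12 windows for 9 of the 10 genes, and Slc5a2 had no entry. Among all 32851 promoter windows of this length, 14.0% hold the nuclear receptor letters, 6.47% the cAMP letters and 12.4% the TATA box. Further searches for CAAAGTCCA (an HNF4 core, in 0.384% of windows) and TGTTTAC (a forkhead core, in 3.17%) matched in none of the 12. The G and C content of the printed windows was 43.2% for G6pc, 50.8% for Pck1, 60.0% for Slc5a1 and 66.4% for Slc2a1.

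Total counts ran from 18409940 to 24705953 per library, and each of the 10 genes had at least 84 counts in every library. Levels are given in CPM, the usual depth-scaled count, with library sizes corrected by the trimmed mean of M-values (TMM), and a gene is called when the adjusted p of edgeR's quasi-likelihood test over all 16266 genes tested is under 0.05. Puberulic acid moved much of the transcriptome: 65.3% of the tested genes were called, 31.1% lower and 34.2% higher. With libraries scaled to total counts the median over all log2 fold changes went from 0.05 to 0.56, and 78.4% instead of 52.4% of the calls were higher. Mitochondrially encoded transcripts made up 18.8% to 22.2% of the control counts and 10.5% to 13.8% of the counts with puberulic acid. Markers of the labelled tissue were present in controls, where the 10 proximal tubule markers summed to between 13320 and 17430 CPM.

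Of the 10 genes, 7 were called lower with puberulic acid, 2 were called higher, and Slc5a1 did not pass the threshold. All 7 that fell ended at under 25% of their control mean, and all 7 lay in the lowest 5% of the log2 fold changes of all tested genes, 5 of them in the lowest 1%. The median log2 fold change of the 10 was -3.13, against 0.05 over all tested genes. For 9 of the 10 genes every treated kidney lay outside the control range on one side, as it did for 50.1% of all genes tested. The 7 decreases and the 2 increases were called under each of the 19 alternative settings tried. In tissue RNA of this kind, fewer cells of a type and less RNA per cell cannot be told apart.

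**Figure D1:**
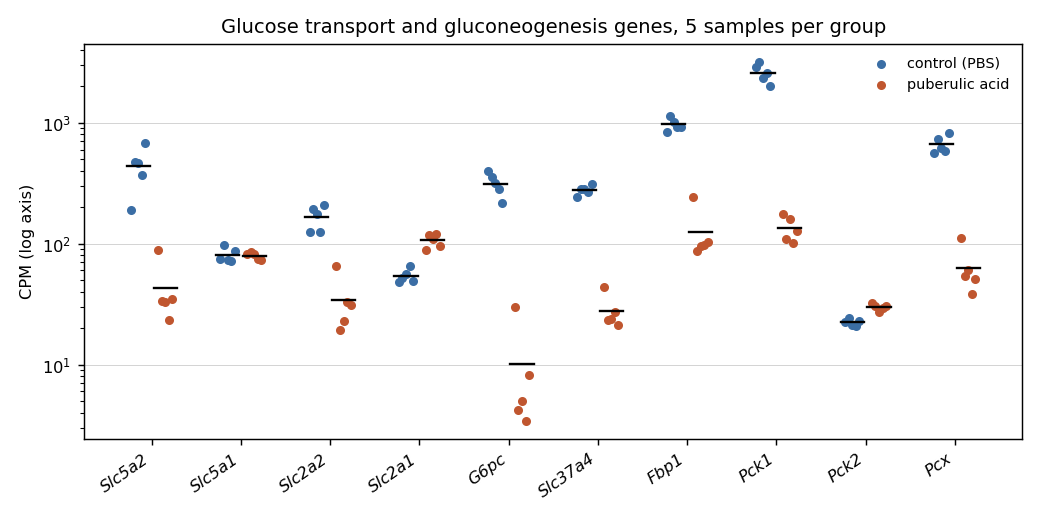
Level of each of the 10 genes in CPM (log axis) in the 5 control and 5 puberulic acid kidneys, each point a sample and each black line the mean of its group. For 7 genes all puberulic acid points lie below all control points, for Slc2a1 and Pck2 they lie above, and for Slc5a1 the groups overlap.

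The apical cotransporters separated. Slc5a2 (ENSMUSG00000030781) stood at 189, 472, 467, 367 and 680 CPM in control replicates 1 to 5 and at 88.9, 33.8, 33.2, 23.5 and 34.6 CPM in puberulic acid replicates 1 to 5. The lowest control was still more than the highest treated kidney, and replicate 1 of the puberulic acid group was the highest of its group. The group means were 435.0 ± 178.7 and 42.8 ± 26.2 CPM (SD, n = 5 per group), and the log2 fold change was -3.34 ± 0.41 (SE, edgeR adjusted p = 2.04e-05). In the GENCODE M21 annotation an exon of Slc5a2 overlaps the gene BC017158 on the opposite strand, and the library kit keeps the strand, but whether the counting used it is not given in the sources used here. BC017158 itself had 42.9 ± 13.3 CPM in the PBS kidneys and 19.1 ± 1.95 CPM in the treated ones (SD, n = 5 per group).

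Slc5a1 (ENSMUSG00000011034), the high-affinity cotransporter of the late segment and the gut, did not pass the threshold on this scale. It stood at 74.5, 97.7, 73.0, 72.4 and 86.3 CPM in the controls and at 81.9, 85.6, 82.2, 74.4 and 73.7 CPM with puberulic acid, so that the treated kidneys lay inside the control range. The log2 fold change was -0.02 ± 0.10 (SE, edgeR adjusted p = 0.858), with a 95% interval from the normal distribution of -0.21 to 0.17. Scaling to total counts turned this into a rise of 0.49 (edgeR adjusted p = 0.00066), while the median of all genes moved by a like amount. A ratio of 2 genes within a library hardly depends on the scaling. The ratio of Slc5a2 to Slc5a1 counts was 5.00 in controls and 0.481 with puberulic acid (geometric means), a change of -3.38 ± 0.41 on the log2 scale (SE, n = 5 per group, exact two-sided permutation p = 0.00794, adjusted p = 0.0102 over the 9 ratios tested). The ratio was lower in every treated kidney than in every control.

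The facilitative transporters of the blood side moved in opposite directions. Slc2a2 (ENSMUSG00000027690) stood at 125.0, 193, 176, 126 and 209 CPM in the controls and at 65.7, 19.4, 23.1, 33.01 and 31.2 CPM with puberulic acid. The groups did not overlap, and the log2 fold change was -2.26 ± 0.31 (SE, edgeR adjusted p = 4.40e-05). Slc2a1 (ENSMUSG00000028645), the widely expressed GLUT1, stood at 47.8, 52.1, 55.8, 65.9 and 49.3 CPM in the controls and at 87.9, 117, 110.0, 120 and 96.1 CPM with puberulic acid. It rose in all 5 treated kidneys to above the control range, with a log2 fold change of 0.97 ± 0.12 (SE, edgeR adjusted p = 1.54e-05), and replicate 1 of the puberulic acid group had the smallest rise. The ratio of Slc2a2 to Slc2a1 went from 3.01 to 0.298, a log2 change of -3.33 ± 0.42 (SE, n = 5 per group, exact permutation, adjusted p = 0.0102).

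Slc2a1 is also made by cells outside the tubule, so the marker levels of other cell types are given beside it. For the counts of calls, 34.2% of all tested genes were called higher and 31.1% lower. All 4 fibroblast markers were called higher and summed to 399.8 to 1516 CPM with puberulic acid against 80.6 to 124.8 in controls. Of the 4 macrophage markers 2 were called higher, with sums of 118 to 361.6 against 65.2 to 154.7 CPM. The count was 4 without puberulic acid replicate 1 and 3 without control replicate 4. No endothelial or podocyte marker was called higher: 1 of 4 and 1 of 3 were called lower, with sums of 72.2 to 186.4 against 136.2 to 218.8 CPM and of 66.2 to 339 against 191 to 412.7 CPM. Leaving out single libraries gave 1 to 2 lower calls for endothelium and 0 to 1 for podocytes. With total-count scaling no endothelial or podocyte marker was called in either direction, and all 4 macrophage markers were called higher. All 5 markers of red blood cells, which carry GLUT1 in early life, were called lower, with sums of 27.5 to 265.1 against 990.7 to 3238 CPM. All 3 injured-tubule markers were called higher. The part of these cells in the rise of Slc2a1 was not tested.

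The pair that handles filtered glucose in the early segment did not fall equally. The ratio of Slc2a2 to Slc5a2 went from 0.404 to 0.822, a log2 change of 1.02 ± 0.29 (SE, n = 5 per group, exact two-sided permutation p = 0.0159, adjusted p = 0.0179), although the ranges of the groups overlapped. Slc5a2 thus lost more of its RNA than Slc2a2 did.

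The last steps of gluconeogenesis held the largest decrease of the 10. G6pc (ENSMUSG00000078650), whose promoter is printed above, stood at 399.2, 354, 318, 282 and 219 CPM in the controls and at 29.8, 4.22, 5.04, 3.42 and 8.26 CPM with puberulic acid. Every treated kidney was far below every control, and replicate 1 of the puberulic acid group held several times the level of the other 4. The log2 fold change was -4.95 ± 0.59 (SE, edgeR adjusted p = 1.64e-05), the 18th lowest of all tested genes. Without puberulic acid replicate 1 it was -5.92 (edgeR adjusted p = 1.56e-08), so this library moves the size of the fold change and not its direction.

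Slc37a4 (ENSMUSG00000032114), which moves glucose-6-phosphate to the enzyme, stood at 242, 281, 284, 265 and 313 CPM in the controls and at 43.8, 23.5, 23.6, 27.3 and 21.0 CPM with puberulic acid. Its controls were among the tightest of the set, with a coefficient of variation of 9.41%, and the groups lay apart. It fell by 3.31 ± 0.19 on the log2 scale (SE, edgeR adjusted p = 7.09e-08). The enzyme fell further than its transporter: the ratio of G6pc to Slc37a4 went from 1.11 to 0.268, a log2 change of -2.06 ± 0.47 (SE, n = 5 per group, exact permutation, adjusted p = 0.0102).

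Fbp1 (ENSMUSG00000069805) stood at 834, 1143, 1014, 930.0 and 923 CPM in the controls and at 243, 87.5, 95.3, 97.8 and 102 CPM with puberulic acid. Replicates 2 to 5 of the puberulic acid group lay within a narrow band, and replicate 1 lay well above them while still below all controls. The log2 fold change was -2.95 ± 0.28 (SE, edgeR adjusted p = 2.46e-06).

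Of the enzymes that form phosphoenolpyruvate, the cytosolic and the mitochondrial form moved apart. Pck1 (ENSMUSG00000027513) stood at 2879, 3184, 2331, 2576 and 2028 CPM in the controls and at 174, 110, 161, 101 and 126 CPM with puberulic acid. Its log2 fold change was -4.27 ± 0.20 (SE, edgeR adjusted p = 1.39e-08), the lowest adjusted p among the 10. Replicate 1 of the puberulic acid group was again the highest of its group, closely followed by replicate 3. The groups did not overlap.

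Fat cells also express Pck1, and puberulic acid replicate 3 held fat cell transcripts. Adipoq, the adiponectin gene, was at 20.3 CPM in that library, against 0 in all 5 controls and 0 to 0.57 in the other treated kidneys. Plin1, a coat protein of fat droplets, was at 16.9 CPM there and at 0.17 to 0.32 CPM in the other treated kidneys. Pck1 in the same library was the second highest of its group, and without it the log2 fold change of Pck1 was -4.35. The part of fat in the Pck1 level was not tested.

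Pck2 (ENSMUSG00000040618), the mitochondrial form, was low in both groups and rose a little. It stood at 22.6, 24.1, 21.1, 20.9 and 23.0 CPM in the controls and at 32.2, 30.3, 27.2, 29.3 and 30.2 CPM with puberulic acid. All treated kidneys were above all controls, and the log2 fold change was 0.42 ± 0.08 (SE, edgeR adjusted p = 0.000637). The ratio of Pck1 to Pck2 went from 115 to 4.40, a log2 change of -4.70 ± 0.19 (SE, n = 5 per group, exact permutation, adjusted p = 0.0102).

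Pcx (ENSMUSG00000024892), the entry step from pyruvate, stood at 566, 730.0, 619, 581 and 819 CPM in the controls and at 112, 54.1, 60.7, 38.4 and 51.3 CPM with puberulic acid. The groups did not overlap, and the log2 fold change was -3.39 ± 0.27 (SE, edgeR adjusted p = 6.09e-07). Pck1 fell more than Pcx, with a log2 change of their ratio of -0.82 ± 0.23 (SE, n = 5 per group, exact two-sided permutation p = 0.0238, adjusted p = 0.0238), and the ranges of this ratio overlapped.

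Levels of different genes can be compared only per length, for which CPM was divided by the length in kb of the longest coding transcript in GENCODE M21. Which transcript of each gene the kidneys made was not determined, so the order depends on this choice of length. In controls the order on this scale was Pck1 (977 ± 170 CPM per kb), Fbp1 (655 ± 78.8), Slc5a2 (191 ± 78.5), Pcx (160 ± 26.1), G6pc (130 ± 28.5), Slc37a4 (118 ± 11.1), Slc2a2 (29.8 ± 6.95), Slc5a1 (19.7 ± 2.68), Slc2a1 (16.6 ± 2.22) and Pck2 (4.83 ± 0.286), each with its SD over n = 5. The ranges of neighbours overlapped except between Fbp1 and Slc5a2, Slc37a4 and Slc2a2, and Slc2a1 and Pck2. With puberulic acid Fbp1 (84.7 ± 44.7 CPM per kb) and Pck1 (50.6 ± 12.0) were still the highest, with overlapping ranges, and Slc2a1 came next at 32.6 ± 4.22. Slc5a1 (19.4 ± 1.3), Slc5a2 (18.8 ± 11.5), Pcx (15.3 ± 6.89) and Slc37a4 (11.9 ± 3.92) followed, each overlapping its neighbour. Pck2 (6.46 ± 0.398), Slc2a2 (6.19 ± 3.29) and G6pc (4.20 ± 4.62) came last and overlapped in the same way. By group means, G6pc thus went from the middle of the order to its end, and Slc2a1 from near the end to the highest of the 4 transporters. The treated range of Slc5a2, 10.33 to 39.06 CPM per kb, overlapped that of Slc2a1, 26.95 to 36.7.

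Glycolysis bypasses the gluconeogenic enzymes with irreversible steps of its own, and ratios between the opposing enzymes shifted in each pair compared. Hexokinase 1 (Hk1), which phosphorylates glucose, had a log2 fold change of 0.33 (edgeR adjusted p = 0.00163), and the ratio of G6pc to Hk1 went from 2.89 to 0.0539, a log2 change of -5.75 ± 0.58 (SE, n = 5 per group, exact permutation, adjusted p = 0.0102). The liver-type phosphofructokinase Pfkl had a log2 fold change of -0.57 (edgeR adjusted p = 0.00219) that was -0.07 with total counts (adjusted p = 0.663), and the ratio of Fbp1 to Pfkl went from 15.6 to 2.80, a log2 change of -2.48 ± 0.21 (SE, n = 5 per group, exact permutation, adjusted p = 0.0102). Pyruvate kinase M (Pkm) had a log2 fold change of 0.64 (edgeR adjusted p = 0.000294), and the ratio of Pck1 to Pkm went from 10.2 to 0.336, a log2 change of -4.93 ± 0.26 (SE, n = 5 per group, exact permutation, adjusted p = 0.0102). In these 3 pairs no treated kidney reached the control range. Each pair sets a gene that fell far against a gene that changed much less, so the ratio largely repeats the fall of the first. Against the proximal tubule markers of its own library, Fbp1 changed by only 0.15 ± 0.08 (log2, SE, exact permutation, adjusted p = 0.149). All 9 ratios tested had an adjusted p under 0.05, and the smallest p that 5 against 5 samples allow is 0.00794.

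**Figure D2:**
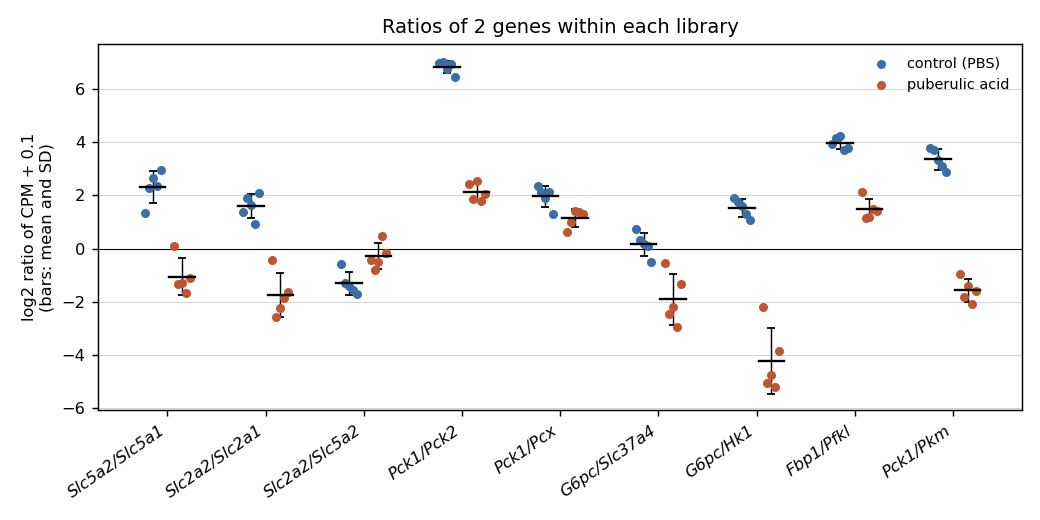
Log2 ratio of the CPM of 2 genes (each plus 0.1) in each of the 10 libraries, with the mean and SD of each group. The groups are apart for 7 of the 9 ratios and overlap for Slc2a2/Slc5a2 and Pck1/Pcx.

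Of the 10 proximal tubule markers, 9 were called lower and none higher, where 31.1% of all tested genes were called lower. Their median log2 fold change was -3.10, with sums of 1175 to 2817 CPM with puberulic acid. The 4 markers of the early and the 4 of the late proximal segments were also all called lower, with medians of -2.06 and -3.68. Markers of the distal nephron were lower as well. All 2 of the distal convoluted tubule and all 3 of collecting duct principal cells (median -1.36) were called lower. So were 3 of 4 of intercalated cells (median -1.08). With total-count scaling these counts were 1, 3 and 1. The 2 distal convoluted tubule markers were unlike, at -0.76 for Slc12a3 and -4.18 for Pvalb. Their median of -2.47 became -3.39 without puberulic acid replicate 1. Of the 3 thick ascending limb markers 1 was called lower, 0 to 1 when single libraries were left out, and none was lower and 2 were higher with total-count scaling. Each of the 10 glucose genes was therefore also set against the mean log2 level of the 10 general markers in its own library. Slc5a2, Slc37a4, Fbp1 and Pcx changed by -0.18 ± 0.27, -0.15 ± 0.12, 0.15 ± 0.08 and -0.26 ± 0.13 relative to the markers (log2, SE, n = 5 per group), and the exact permutation test did not separate the groups (adjusted p = 0.532, 0.370, 0.149 and 0.125 over the 10 genes). For Slc37a4 the change was -0.36 (exact permutation, adjusted p = 0.0265) when the median of the markers replaced their mean.

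The change of G6pc relative to the markers was -2.20 ± 0.38 on the log2 scale (SE, n = 5 per group, exact permutation, adjusted p = 0.0159). That of Pck1 was -1.07 ± 0.24 (SE, n = 5 per group, exact permutation, adjusted p = 0.0265), with an adjusted p of 0.0529 in 8 of the 10 repeats that each left out a library, and its ranges overlapped. The log2 fold changes of the single markers ran from -0.63 (Slc13a1) to -5.36 (Slc34a1). Those of G6pc and Pck1, at -4.95 and -4.27, lay inside that span. Slc2a2 was higher relative to the markers by 0.85 ± 0.16 (SE, n = 5 per group, exact permutation, adjusted p = 0.0159). Slc5a1, Slc2a1 and Pck2 were higher relative to them by 3.20, 4.18 and 3.63 (exact permutation, adjusted p = 0.0159 each), and no treated kidney overlapped the controls for these 3. Levels relative to the markers of single proximal segments were not tested. The 4 early-segment markers had log2 fold changes of -2.64 to -0.91, beside -2.26 for Slc2a2 and -3.34 for Slc5a2.

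**Figure D3:**
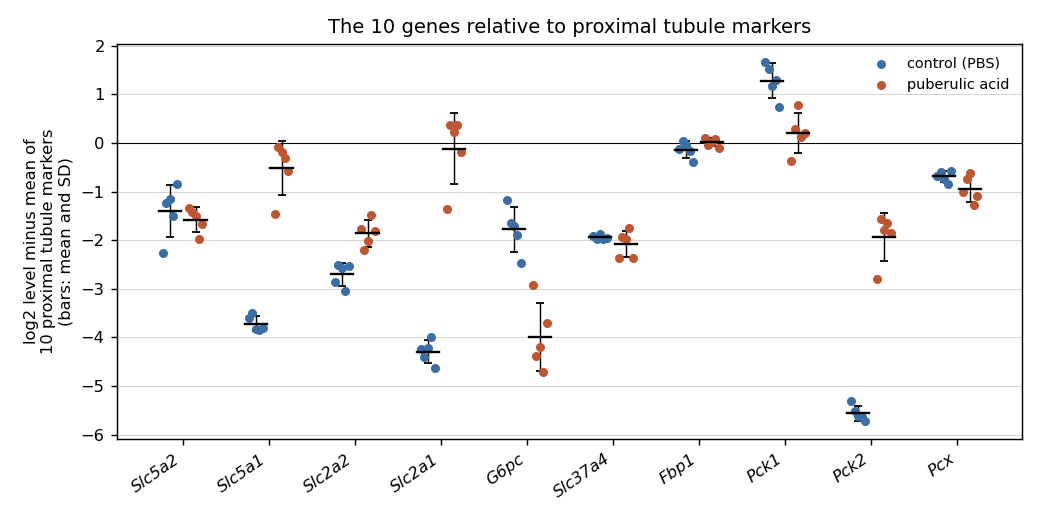
Log2 level of each of the 10 genes minus the mean log2 level of 10 proximal tubule markers in the same library, with the mean and SD of each group of 5. Slc5a2, Slc37a4, Fbp1, Pcx and Pck1 overlap between the groups, G6pc lies lower with puberulic acid, and Slc5a1, Slc2a1 and Pck2 lie at least 2.98 higher under every alternative tried.

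A list of the wider glucose transporter family and the SGLT2 partner Pdzk1ip1 held 17 genes, of which 15 were tested. In this list 12 were called lower, 1 higher and 2 did not pass, with a median log2 fold change of -1.26. The share of all tested genes called lower was 31.1%. The lactate transporters of the same family fell, with log2 fold changes of -2.64 ± 0.60 for Slc5a12 and -2.17 ± 0.18 for Slc5a8 (SE, edgeR adjusted p = 0.00199 and 9.16e-07). Slc5a11, an inositol transporter, had a log2 fold change of -2.36 ± 0.24 (SE, edgeR adjusted p = 4.93e-06). Slc5a12 was at 51.1 CPM in puberulic acid replicate 1 and at 3.79 to 11.3 in the other 4, against 68.3 to 152 in controls, and without that replicate its log2 fold change was -3.72 (edgeR adjusted p = 1.41e-06). Slc2a3, which encodes GLUT3, was the member that rose, from a mean of 1.17 ± 0.25 to one of 2.97 ± 0.68 CPM (SD, n = 5 per group, edgeR adjusted p = 0.000332). Pdzk1ip1, whose product MAP17 is needed for SGLT2 activity, is named here outside the naming rule, after its values were seen: its mean was 525 ± 104 CPM in controls and 154 ± 17.7 CPM after treatment (SD, n = 5 per group, edgeR adjusted p = 6.11e-07). Total-count scaling left 10 of these genes lower and 3 higher.

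Isozymes and the supply of substrate for gluconeogenesis moved mostly downward. Of the 22 tested genes 20 were called lower and 2 higher, where 31.1% of all tested genes were called lower. The median log2 fold change of the list was -0.94. Slc25a10, the mitochondrial dicarboxylate carrier, went from 537 ± 49.0 to 78.8 ± 9.54 CPM (SD, n = 5 per group, edgeR adjusted p = 4.64e-09). Glycerol kinase (Gk), through which glycerol enters the pathway, went from a control mean of 686 ± 146 to 108 ± 17.4 CPM (SD, n = 5 per group, edgeR adjusted p = 8.63e-08), and Gpd1, the next enzyme, had a log2 fold change of -2.22. The lactate transporter Slc16a1 was among the 2 that rose, with a log2 fold change of 0.82 (edgeR adjusted p = 0.000197). With total-count scaling 12 were lower and 4 higher.

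The reversible steps that gluconeogenesis shares with glycolysis changed less, with 7 of 11 genes called lower, none higher and a median of -0.56. Among all tested genes 31.1% were called lower. The aldolase Aldoc and the enolase Eno3 had log2 fold changes of -1.05 and -0.91 from control means of 13.3 and 5.20 CPM, and neither was called with total-count scaling (edgeR adjusted p = 0.0690 and 0.0676). Total-count scaling left 1 gene of this list lower and called 3 higher.

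Of the irreversible steps of glycolysis and the pyruvate dehydrogenase switch, 10 of 18 tested genes were called higher and 6 lower, with a median of 0.49, where 34.2% of all tested genes were called higher and 31.1% lower. Hexokinase 2 (Hk2) rose from 0.34, 0.42, 0.13, 3.55 and 1.23 CPM in the controls to 9.80, 16.7, 16.99, 16.9 and 15.1 CPM, a log2 fold change of 3.74 ± 0.60 (SE, edgeR adjusted p = 0.000164). Without control replicate 4, the highest control, it was 4.82 (edgeR adjusted p = 5.79e-06). Pfkfb1, which sets fructose-2,6-bisphosphate, had a log2 fold change of 2.33 from a control mean of 0.575 CPM, and the pyruvate dehydrogenase kinase Pdk4 had one of 2.10. The kinase Pdk2, the muscle phosphofructokinase Pfkm and the dehydrogenase subunit Pdha1 had log2 fold changes of -2.43, -1.34 and -0.83, with edgeR adjusted p-values of 4.65e-06, 0.000131 and 6.32e-05. Total-count scaling gave 12 higher and 3 lower.

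Regulators of these genes were mixed, with 12 of 20 called lower, 3 higher, 5 not past the threshold, and a median of -0.40. Of all tested genes 31.1% were called lower and 34.2% higher. Hnf4a, a nuclear receptor that keeps proximal tubule and liver genes active, stood between 650 and 744 CPM in the PBS kidneys and between 145 and 238 CPM in the treated ones, a log2 fold change of -2.05 ± 0.14 (SE, edgeR adjusted p = 2.47e-07). In Hnf4a too, replicate 1 was the highest of the puberulic acid group, as for the 7 glucose genes that fell. Ppara, a regulator of the fasting response, had a log2 fold change of -1.90 (edgeR adjusted p = 0.000714), while Cebpb, Creb1 and Sirt1 had 1.21, 0.95 and 0.63 and were the 3 called higher. With total-count scaling 8 regulators were called in each direction, and the median of the list was 0.10.

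**Figure D4:**
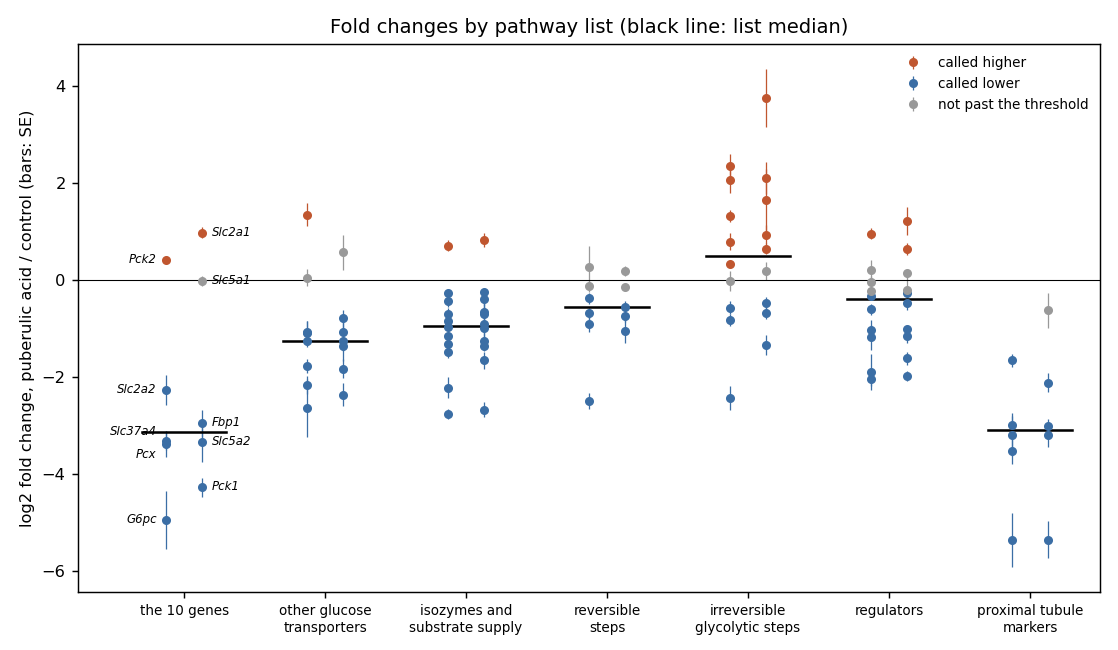
Log2 fold change with puberulic acid against control for the 10 genes, 5 lists of related genes and 10 proximal tubule markers; each point is a gene with its SE, coloured by its call, and black lines are list medians. The medians are -3.13 for the 10 genes and -3.10 for the markers, and on this TMM scale the irreversible glycolytic steps have the only median above 0. With total counts the median of the regulators is also above 0, at 0.10.

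The 7 genes that fell shared the sample at the top of the treated group: replicate 1 was the highest of the puberulic acid group for all 7. The same library was the highest of its group for all 10 proximal tubule markers, whose sum was 2817 CPM there and 1175 to 1439 CPM in the other 4. It was also the highest for all 2 distal convoluted tubule, 3 collecting duct principal, 4 intercalated and 5 red blood cell markers. It was the lowest of its group for the 3 injured-tubule and the 4 macrophage markers, with an injured-tubule sum of 1490 CPM against 1768 to 2701. The part of these levels in the order of the 7 genes was not tested. The coefficient of variation in that group was 110% for G6pc, 61.2% for Slc5a2 and 23.7% for Pck1, against 21.9%, 41.1% and 17.4% in controls. Leaving out replicate 1 gave means of 5.24 ± 2.12 CPM for G6pc, 31.3 ± 5.20 for Slc5a2 and 95.7 ± 6.16 for Fbp1 (SD, n = 4). Among the controls, replicate 1 had the lowest Slc5a2 and the highest G6pc, and replicate 5 the highest Slc5a2 and the lowest G6pc.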

How the data were processed

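Poly(A) RNA of whole kidney was sequenced with a directional kit, per the labels. The authors deposited a table of estimated counts, a row per gene. The submitters' processing notes list fastp 0.22.0, Salmon 1.10.3 and the build GRCm39 without saying how each was used, and the annotation is not given in the sources used here. Symbols came from a gene name table, in which 51344 of 55822 identifiers matched. The 10 supplement columns were not used.

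Estimated counts were rounded, filtered with filterByExpr, scaled by TMM and tested in edgeR 4.0.16 (R 4.3.3), 5 controls against 5 puberulic acid kidneys, with Benjamini-Hochberg adjustment over all 16266 genes tested. Each SE was derived from the fold change and its F statistic. Ratios were log2 of CPM plus 0.1, tested by exact two-sided permutation of samples (scipy 1.17.1). The edgeR step was tested on simulated data. The genes and lists were chosen with earlier results of these data known. All 10 genes were named whatever their values; from each list the 3 called genes of largest change per direction, with a mean of at least 1 CPM, were named, with the genes of the ratios and at most 2 genes of a marker list. Some genes that this rule picks are not reported here. Planned comparisons of the supplement lots are not analysed here.

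Alternatives were other scalings and filters, DESeq2 1.42.0, a robust fit, leaving out abundant genes, a replicate block and leaving out each library.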

Additional observations from a re-analysis of the deposited data

Results flagged for a closer look

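Each level, ratio and level relative to markers of the 10 genes was searched within its group of 5 for a library whose gap to the nearest other exceeded 0.71 of the range of the group. This gave 5 such libraries in 58 groups of values, where chance gives about 2.9, and all 5 are puberulic acid replicate 1. Its level was the highest of the group for Slc5a2 (88.9 CPM, others 23.5 to 34.6, gap 0.831 of the range), Slc37a4 (43.8 CPM, others 21.0 to 27.3, gap 0.725), G6pc (29.8 CPM, others 3.42 to 8.26, gap 0.817) and Fbp1 (243 CPM, others 87.5 to 102, gap 0.905). Its Pck2 level relative to the proximal tubule markers was the lowest of the group, at -2.81 on the log2 scale against -1.85 to -1.57 (gap 0.772). These values come from a single library, so they are not independent. What set this library apart was not tested.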

How the results depend on the processing

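The 7 decreases stayed called under all 19 alternatives, and 2 to 3 of the 10 genes were called higher. The exception was Slc5a1, whose log2 fold change of -0.02 became 0.49 with total-count scaling, under which the median of all tested genes moved from 0.05 to 0.56. The same scaling gave 3 higher calls in the glucose transporter list, 4 higher and 12 lower in the substrate list, 3 higher and 1 lower in the reversible steps, 3 lower in the irreversible steps and 8 higher among regulators. Upper-quartile factors called 1 reversible step higher, and leaving out single libraries gave 0 to 1 there, the 1 without control replicate 4. Counts of called genes ran from 9960 to 11844. The list counts under other settings, and single listed genes without a library, were added after seeing the data. Same-numbered samples had correlations of deviations from -0.172 to 0.039, which shows no sign of pairing by number but cannot exclude it. With the replicate block 10325 genes were called, and none of the 10 genes changed its call. All 9 ratios kept their calls under 11 alternatives, and 5 to 7 genes differed relative to the markers. With 4 against 5 libraries the exact tests lose resolution. Each of the 10 genes had at least 84 counts in every library.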
